A study of Homo sapiens with 40 samples.

Results

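The genes described here are EGR1, EGR2 and EGR3, IER2, IER3, IER5 and IER5L, and SRF, 8 of the 57992 genes in the deposited count table. They were taken by symbol, and each of the 8 was found once. EGR and IER genes belong to the immediate-early genes, which cells transcribe soon after a growth factor, serum or stress reaches them, without first making new protein. The RAS to ERK kinase cascade and actin signalling act on SRF, a transcription factor that sits at CArG boxes in the promoters of many of them. Their mRNAs are mostly short-lived, so a large share of the copies present at any time is new.

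The human line HEK293T, derived from embryonic kidney, carried the peroxidase APEX2 at 1 of 4 places, and the series asked how thionucleosides affect the capture of RNA near it. The places were the cytosol (NES construct), the mitochondrial matrix (MITO), the nuclear lamina (LMNB1) and the membrane of the endoplasmic reticulum (ERM). In s6G arms cells received 100 uM 6-thioguanosine for 4.5 h, in the s4U arm 100 uM 4-thiouridine for 4.5 h, and in both then biotin-phenol (0.5 mM, 30 min) before a 1 min pulse of hydrogen peroxide (1 mM). APEX-only arms had biotin-phenol and peroxide without a thionucleoside, and unlabelled arms had peroxide alone. MITO was used in all 4 arms, LMNB1 in the s6G, APEX-only and unlabelled arms, and ERM and NES with s6G only. Each arm has enriched libraries, of RNA held by streptavidin beads, and input libraries, of the RNA before the beads. All cells therefore share the line, APEX2 and the peroxide, and no cells without APEX2 or without peroxide were among the 40 libraries. ERM has 4 enriched and 4 input libraries, and every other group has 2. The design text calls these biological replicates. The 4 enriched ERM libraries and 4 LMNB1 libraries that are titled s6G name s4U in another label, and are called s6G here after their titles and the design text.

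Enriched libraries held 123341 to 14496768 counts and input libraries 3514076 to 12602028, with the lowest total in an unlabelled MITO library. Levels are CPM, counts scaled to library size, with TMM-scaled library sizes over all 40 libraries. In bulk RNA, fewer cells with a transcript and less of it per cell cannot be told apart. Of 6 markers that HEK293T cells express, NEFL, NEFM, INA, PAX2 and VIM had counts in all 40 libraries and KRT18 in 39. The summed markers ranged from 123 to 1574 CPM, against 0.419 to 19.6 CPM for 5 blood cell markers, 0 to 78.0 CPM for 3 endothelial, 5.00 to 82.4 CPM for 4 fibroblast and 0 to 5.59 CPM for 3 hepatocyte markers. No defining blood marker exceeded 10.2 CPM in any library. The fibroblast sum was mostly COL1A1, with a median of 30.1 CPM. The endothelial sum had a median of 0.223 CPM, and its top was mostly VWF (at most 55.7 CPM). In the shallowest library 1 count is 5.57 CPM.

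Promoter sequence is shown for the 5 members that could be tested in every arm, because the enrichment below is given member by member for these 5. RefSeq's table (GRCh38.p14) matched 6 of the 8 members, with no entry for EGR3 and IER3. The lines give the 250 bases before the annotated start, 5′ to 3′ in the direction of the gene, with motif matches in capitals. They are chr5:138465229-138465478 (plus strand) for EGR1, chr6:43171019-43171268 (plus) for SRF, chr19:13150161-13150410 (plus) for IER2, chr1:181088450-181088699 (plus) for IER5 and chr9:129178262-129178511 (minus) for IER5L.
EGR1: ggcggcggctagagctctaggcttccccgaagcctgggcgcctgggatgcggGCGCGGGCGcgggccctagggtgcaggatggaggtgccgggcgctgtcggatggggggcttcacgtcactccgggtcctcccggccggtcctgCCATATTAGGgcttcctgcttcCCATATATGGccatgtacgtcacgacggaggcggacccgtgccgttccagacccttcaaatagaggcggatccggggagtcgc
SRF: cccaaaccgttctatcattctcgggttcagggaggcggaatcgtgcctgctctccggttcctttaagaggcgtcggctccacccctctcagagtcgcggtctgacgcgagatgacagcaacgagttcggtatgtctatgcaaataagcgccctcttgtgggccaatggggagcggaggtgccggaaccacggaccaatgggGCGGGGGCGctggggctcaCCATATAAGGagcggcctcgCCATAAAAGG
IER2: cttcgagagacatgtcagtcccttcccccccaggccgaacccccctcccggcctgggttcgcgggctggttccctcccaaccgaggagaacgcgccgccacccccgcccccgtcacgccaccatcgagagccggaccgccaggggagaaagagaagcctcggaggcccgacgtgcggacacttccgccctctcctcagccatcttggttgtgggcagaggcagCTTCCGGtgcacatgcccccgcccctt
IER5: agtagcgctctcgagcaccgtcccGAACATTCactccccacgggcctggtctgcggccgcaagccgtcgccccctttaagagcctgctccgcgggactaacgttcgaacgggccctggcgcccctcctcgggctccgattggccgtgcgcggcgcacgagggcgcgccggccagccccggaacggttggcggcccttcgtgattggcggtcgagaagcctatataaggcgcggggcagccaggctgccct
IER5L: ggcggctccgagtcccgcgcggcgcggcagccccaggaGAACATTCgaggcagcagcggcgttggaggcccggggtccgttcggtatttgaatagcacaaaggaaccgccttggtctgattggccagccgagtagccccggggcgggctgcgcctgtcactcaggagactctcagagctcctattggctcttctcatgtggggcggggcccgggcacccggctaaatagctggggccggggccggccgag

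Motifs were searched on both strands of the 300-base window that also holds the first 50 transcribed bases. EGR1 held 2 CArG boxes, at -105 and -83 from the start, and SRF 2, at -30 and -10. Of 35116 promoters, 1.29% held at least 1 CArG box and 0.0313% held 2 or more. Both also held 1 match to GCGNGGGCG, the letters of an EGR site, at -198 in EGR1 and -49 in SRF, a match in 9.43% of all promoters. IER2 held 1 match to CCGGAAG, the core read by ETS factors such as the ELK proteins, as 10.3% of promoters did, and it lay on the other strand. IER5 at -226 and IER5L at -212 each held 1 match to GAANNTTC, part of a heat shock element, found in 6.77% of promoters. EGR2, with 3 annotated starts, held 1 CArG box in 1 window and 1 match to GCGNGGGCG in another. A further annotated start of SRF, with its window at chr6:43172146-43172445, held no match to any of the motifs. TGACGTCA and TGANTCA, the letters of CRE and AP-1 sites, were in none of the 9 member windows, against 1.85% and 7.71% of all promoters. None of these matches overlapped another, and no deposited measurement reads binding at them.

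All members are encoded outside the mitochondrion. In GRCh38.p14 the genes lie at chr5:138465479-138469303 (EGR1), chr10:62811996-62819167 (EGR2), chr8:22687659-22693480 (EGR3), chr19:13150411-13154911 (IER2), chr6:30743199-30744547 (IER3), chr1:181088700-181092900 (IER5), chr9:129175552-129178261 (IER5L) and chr6:43171269-43181506 (SRF). No annotated gene overlaps EGR1, EGR2, IER2, IER5, IER5L or SRF. IER3 shares 475 bases with the noncoding IER3-AS1, and EGR3 shares 45 bases with LOC107986924, so reads of those pairs cannot be told apart without a stated strand setting.

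Counts differed widely between members. IER5, a nuclear protein linked to heat shock factor control, had 35209 counts over the 40 libraries, SRF 32007, IER2, a nuclear regulator of growth factor responses, 8936 and EGR1, a zinc-finger transcription factor, 4790. IER5L, the relative of IER5, had 681, EGR3 235 and EGR2 140, the last pair being zinc-finger factors close to EGR1. IER3, which modulates cell death and survival after stress, had 5 counts in 4 libraries, at most 2 in any. Levels can be compared between genes only per length, which the authors' deposited table of summed TPM of both replicates gives for MITO. In that table, APEX-only inputs held 345 summed TPM of IER5, 164 of SRF, 84.8 of IER2, 24.8 of IER5L, 21.7 of EGR1, 2.57 of EGR3 and 0.0595 of EGR2, with IER3 listed at 0. EGR1, IER2, IER5, IER5L and SRF passed the expression filter in every fit, EGR3 also in the LMNB1 fit, EGR2 and EGR3 in the fit of all 40 libraries, and IER3 in none.

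The first comparison asks how members stood in whole-cell RNA with each nucleoside. EGR1 was at 11.0 and 9.50 CPM in MITO s6G inputs, 8.44 and 4.32 in s4U, 7.62 and 2.31 in APEX-only, and 3.44 and 3.91 in unlabelled inputs. Both s6G inputs lay above every other MITO input. In LMNB1 inputs EGR1 was at 14.7 and 13.7 CPM with s6G, 12.0 and 9.79 with APEX only, and 2.92 and 3.97 without labelling. The 3 LMNB1 groups did not overlap one another. ERM s6G inputs held 36.6, 39.0, 27.4 and 21.3 CPM, above all other inputs, and NES s6G inputs 9.26 and 14.7 CPM.

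None of these EGR1 differences within MITO or LMNB1 passed the threshold in the fit without a block. The threshold is an adjusted p of 0.05 in edgeR's quasi-likelihood test with Benjamini-Hochberg adjustment over all genes. EGR1 differed by 1.10 ± 0.96 (log2 fold change ± SE) between MITO s6G and APEX-only inputs, with an edgeR adjusted p of 0.82. The difference was 0.41 ± 0.98 between s4U and APEX-only inputs, and 0.40 ± 0.41 between LMNB1 s6G and APEX-only inputs. Between LMNB1 APEX-only and unlabelled inputs it was 1.63 ± 0.45, with an unadjusted edgeR p of 0.0034 and an adjusted p of 1.0.

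IER5L stood low in the s6G inputs of MITO, and in those of LMNB1 by group mean. Its MITO inputs held 1.16 and 1.36 CPM with s6G, against 5.37 and 5.83 with s4U, 3.61 and 4.62 with APEX only, and 3.93 and 6.59 without labelling. LMNB1 inputs held 2.17 and 1.55 CPM with s6G, 3.21 and 6.63 with APEX only, and 0.972 and 6.11 without labelling. Over all constructs the 10 s6G inputs ranged from 0.0975 to 2.17 CPM (median 1.26), and the 10 inputs without s6G from 0.972 to 6.63 CPM (median 5.00). Of these 20 libraries, the unlabelled LMNB1 library at 0.972 CPM, which rests on 4 counts, was the one below any s6G input among those without s6G. IER5L differed by -1.65 ± 0.64 on the log2 scale between MITO s6G and APEX-only inputs (edgeR adjusted p = 0.51). The difference was -2.11 ± 0.64 between MITO s6G and s4U inputs (edgeR adjusted p = 0.77) and -1.40 ± 0.78 between LMNB1 s6G and APEX-only inputs (edgeR adjusted p = 0.53). The s6G inputs held 1 to 9 counts each, which limits the precision. ERM and NES have no inputs without s6G, so nucleoside and construct cannot be told apart for their inputs.

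IER2, IER5 and SRF stayed closer together. IER5 inputs had 119 and 117 CPM with MITO s6G, 116 and 102 with s4U, 96.0 and 79.5 with APEX only, and 92.7 and 88.1 without labelling. LMNB1 inputs had 123 and 95.9 CPM with s6G, 86.0 and 93.5 with APEX only, and 96.7 and 109.5 without labelling. IER5 differed by 0.47 ± 0.30 on the log2 scale between MITO s6G and APEX-only inputs, with an edgeR adjusted p of 0.73. IER2 ranged from 13.8 to 33.0 CPM over the 20 inputs and SRF from 80.8 to 159. Within MITO the IER2 inputs with s6G (16.8 and 30.9 CPM) overlapped those with s4U (24.3 and 28.7), APEX only (23.5 and 22.9) and no labelling (13.8 and 22.4), and the last 3 groups did not overlap one another.

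Of the tested members, edgeR called 0 of 5 between MITO s6G and APEX-only inputs (0.0528% of all tested genes called), 0 of 5 for s4U over APEX only (0%), 0 of 5 for s6G over s4U (0%), and 0 of 5 for APEX only over unlabelled (0%). It called 0 of 6 for LMNB1 s6G over APEX only (0.127%) and 0 of 6 for LMNB1 APEX only over unlabelled (0%). DESeq2 also called 0 members in each of these 6 comparisons. In the same order it called 180, 53, 54, 0, 289 and 2 genes in all. At an unadjusted edgeR p under 0.05 there was 1 member (IER5L) for MITO s6G over APEX only, among 1287 of 15151 tested genes. For MITO s6G over s4U there was 1 (IER5L), among 708 of 15151. For LMNB1 APEX only over unlabelled there was 1 (EGR1), among 106 of 16525, and there were 0 in the other 3 comparisons. The difference between the s6G effects on LMNB1 and MITO inputs called 0 of 7 members (0% of all tested genes). It gave 0 members at an unadjusted edgeR p under 0.05 (197 of 19314 tested genes) and 0 by DESeq2 (1 gene in all). The s6G effect on IER5L differed between these constructs by 0.28 (95% interval -1.78 to 2.35), and on EGR1 by -0.69 (-2.91 to 1.53), in that fit.

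In order of mean input level, EGR1 was highest in ERM s6G (31.1 ± 8.19 CPM, SD, n = 4), followed by LMNB1 s6G (14.2 ± 0.661, n = 2), NES s6G (12.0 ± 3.85, n = 2), LMNB1 APEX only (10.9 ± 1.57, n = 2) and MITO s6G (10.3 ± 1.08, n = 2). MITO s4U, MITO APEX only, and both unlabelled groups came last. ERM did not overlap with the next group, and MITO s6G did not overlap with s4U, while the other neighbours in this order overlapped. IER5L ran from MITO s4U (5.60 ± 0.323 CPM, n = 2) down to NES s6G (0.840 ± 0.0961, n = 2), with all 4 s6G groups at the low end. IER2 spanned 31.2 ± 1.45 CPM in ERM s6G to 18.1 ± 6.13 in MITO unlabelled inputs, and only ERM stood clear of its neighbour. SRF spanned 126 ± 46.1 CPM in MITO unlabelled to 89.3 ± 4.38 in NES s6G inputs, and every neighbouring pair overlapped. IER5 spanned 118 ± 1.44 CPM in MITO s6G to 56.6 ± 1.13 in NES s6G inputs. Constructs differ in their cells as well as their place, and levels between constructs were not tested.

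**Figure D1:**
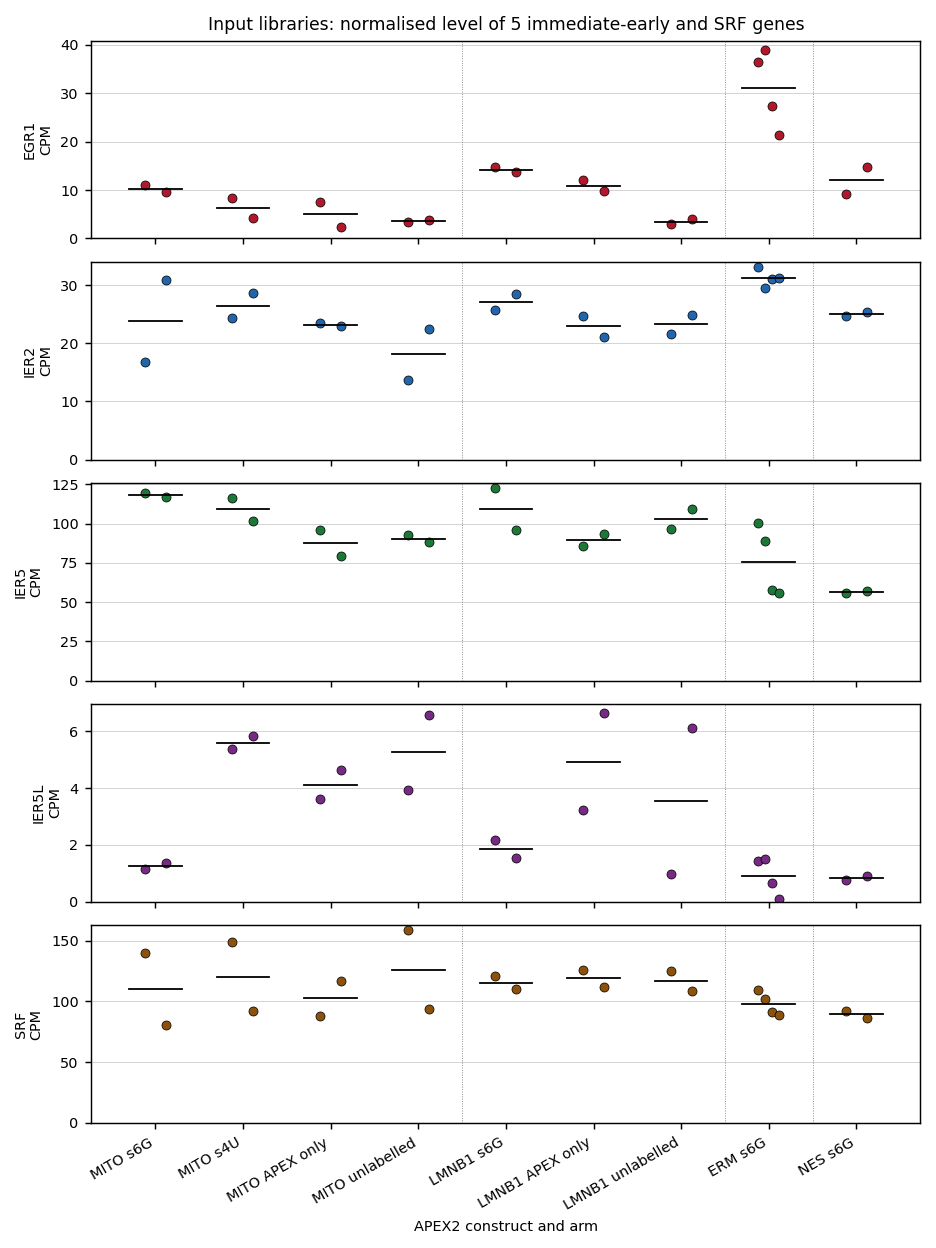
Input level of 5 members in each construct and arm, in CPM on axes that start at 0; points are libraries and black bars the group means. EGR1 is highest in the 4 ERM inputs (21.3 to 39.0 CPM) and lowest by group mean in the unlabelled inputs (2.92 to 3.97 CPM). IER5L is at 0.0975 to 2.17 CPM in the s6G inputs, and ERM and NES have no inputs without s6G to set them against.

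The remaining comparisons set RNA held by the beads against its own input. In the ERM s6G arm, IER2, IER5, IER5L and SRF rose 1.9- to 3.5-fold, while EGR1 lay below its input in every replicate. IER5 had 254, 241, 248 and 279 CPM in enriched libraries, against 101, 89.2, 57.4 and 55.6 CPM in inputs. It rose by 1.80 ± 0.16 on the log2 scale (edgeR adjusted p = 3.4e-08), and the groups did not overlap. ERM inputs 1 and 2 held more IER5 than inputs 3 and 4. The ratio of enriched to input CPM within a replicate was therefore 2.53 and 2.70 in replicates 1 and 2, and 4.32 and 5.03 in replicates 3 and 4. EGR1, EGR2, EGR3, IER5L and SRF inputs were also higher in replicates 1 and 2, while IER2 inputs did not split so. ERM libraries of replicates 1 and 2 held 5342584 to 6664875 counts, and those of replicates 3 and 4 held 12382757 to 14496768. The cause of this split was not tested. SRF had 230, 183, 193 and 224 CPM in enriched libraries, against 110, 102, 91.3 and 88.6 CPM in inputs. IER2 had 57.5, 60.5, 58.8 and 56.6 CPM in enriched libraries, against 33.0, 29.5, 31.1 and 31.2 CPM in inputs.

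SRF rose by 1.12 ± 0.11 (edgeR adjusted p = 7.03e-08) and IER2 by 0.93 ± 0.10 (adjusted p = 2.27e-07), with no overlap between groups. IER5L rose by 1.74 ± 0.50 (edgeR adjusted p = 0.0056), from low levels of 3.45, 3.36, 1.45 and 2.91 CPM in enriched libraries, against 1.44, 1.49, 0.646 and 0.0975 CPM in inputs. EGR1 had 27.1, 25.4, 18.9 and 19.4 CPM in enriched libraries, against 36.6, 39.0, 27.4 and 21.3 CPM in inputs. Its difference of -0.42 ± 0.20 did not pass the threshold (edgeR adjusted p = 0.070), but with the replicate as a block it fell by 0.40 ± 0.12 (adjusted p = 0.0055). Without the block it also passed when enriched replicate 1 (-0.52, edgeR adjusted p = 0.037) or input replicate 4 (-0.59, adjusted p = 0.012) was left out, and DESeq2 called it (-0.50, DESeq2 adjusted p = 0.043). EGR2 had 0.263 to 0.978 CPM in enriched libraries, against 0 to 0.479 CPM in inputs, and EGR3 0 to 0.658 CPM against 0.277 to 1.68 CPM, and neither was tested. In all, 4 of 5 tested members were called, all higher, where 63.2% of all tested genes were called in either direction and 34.3% higher. The members' median log2 fold change was 1.12, against 0.11 over all tested genes.

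In the NES s6G arm, EGR1 rose together with IER2, IER5 and SRF. IER5 had 379 and 303 CPM in enriched libraries, against 55.8 and 57.4 CPM in inputs, and rose by 2.60 ± 0.24 (edgeR adjusted p = 1.15e-07), a 6.08-fold difference. IER2 had 77.1 and 81.6 CPM in enriched libraries, against 24.7 and 25.4 CPM in inputs, and rose by 1.67 ± 0.15 (edgeR adjusted p = 6.48e-08). SRF had 280 and 265 CPM in enriched libraries, against 92.4 and 86.2 CPM in inputs, and rose by 1.62 ± 0.16 (edgeR adjusted p = 1.74e-07). These 3 genes had enriched libraries far above both inputs.

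EGR1 had 23.3 and 31.7 CPM in enriched NES libraries, against 9.26 and 14.7 CPM in inputs. It rose by 1.20 ± 0.30 (edgeR adjusted p = 0.0026), though fitted with all 40 libraries the adjusted p was 0.21. IER5L had 2.20 and 2.45 CPM in enriched libraries, against 0.772 and 0.908 CPM in inputs, a difference of 1.46 ± 0.77 that did not pass (edgeR adjusted p = 0.12). This made 4 of 5 tested members called, all higher, where 55.1% of all tested genes were called in either direction and 28.7% higher. The members' median log2 fold change was 1.62, against 0.01 over all tested genes.

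In the LMNB1 s6G arm, IER2 and IER5 rose about 2-fold. IER2 had 53.6 and 45.1 CPM in enriched libraries, against 25.8 and 28.5 CPM in inputs, and rose by 1.01 ± 0.27 (edgeR adjusted p = 0.026). IER5 had 240 and 134 CPM in enriched libraries, against 123 and 95.9 CPM in inputs, and rose by 0.91 ± 0.24 (edgeR adjusted p = 0.025). Neither pair of groups overlapped, but each call was lost without some libraries. IER2 gave 0.89 without enriched replicate 1, 1.10 without enriched replicate 2, 0.86 without input replicate 1 and 0.96 without input replicate 2, with edgeR adjusted p from 0.094 to 0.24. IER5 gave 0.45 without enriched replicate 1, 1.03 without input replicate 1 and 0.63 without input replicate 2, with edgeR adjusted p from 0.091 to 0.37. Its enriched replicate 1 held nearly double the CPM of replicate 2.

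SRF had 118 and 122 CPM in enriched LMNB1 s6G libraries, against 121 and 110 CPM in inputs, a difference of 0.21 (95% interval -0.37 to 0.78). EGR1 had 15.1 and 26.4 CPM in enriched libraries, against 14.7 and 13.7 CPM in inputs, a difference of 0.72 ± 0.41 (edgeR adjusted p = 0.28). IER5L had 4.25 and 3.07 CPM in enriched libraries, against 2.17 and 1.55 CPM in inputs, and EGR3 0.708 and 1.45 CPM against 0.481 and 0.968 CPM. Of 6 tested members 2 were called, both higher, where 13.0% of all tested genes were called in either direction and 5.37% higher. Their median log2 fold change was 0.82, against 0.13 over all tested genes.

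In the LMNB1 APEX-only arm EGR1 had the largest difference of the tested members. It had 41.5 and 30.0 CPM in enriched libraries, against 12.0 and 9.79 CPM in inputs. The difference of 1.76 ± 0.41 did not pass (edgeR adjusted p = 0.060), and with the replicate as a block EGR1 rose by 1.75 ± 0.36 (adjusted p = 0.034). IER5 had 102 and 95.5 CPM in enriched libraries, against 86.0 and 93.5 CPM in inputs, a difference of 0.19 (95% interval -0.33 to 0.70). IER2 differed by 0.19 (-0.39 to 0.77) and SRF by -0.49 (-1.06 to 0.08). EGR3 had 2.03 and 2.64 CPM in enriched libraries, against 0.508 and 1.05 CPM in inputs, a difference of 1.59 ± 1.02. edgeR called 0 of 6 tested members (1.43% of all tested genes called). There was 1 member (EGR1) at an unadjusted p under 0.05, among 2606 of 16525 tested genes. The block (4.08% of all tested genes called) and DESeq2 (1051 genes called) each called EGR1 alone of the members.

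In the unlabelled LMNB1 arm no EGR1 read was counted in either enriched library, against 12 and 26 counts in inputs (2.92 and 3.97 CPM). A floor of 3 counts over both enriched libraries (0.507 CPM) makes EGR1 at least 6.80-fold lower there than the input mean of 3.44 CPM. EGR3 also had 0 counts in both, against 1 and 13 in inputs, and no fold is given because the input with 1 count lies under that floor. These enriched libraries were shallower than the labelled ones, and IER5 still had 96.4 and 88.1 CPM in them, against 96.7 and 109.5 CPM in inputs. IER2 had 28.3 and 21.2 CPM in enriched libraries, against 21.6 and 24.9 CPM in inputs. edgeR called 0 of 6 tested members (0.0363% of all tested genes called), EGR1 with an adjusted p of 0.087. At an unadjusted p under 0.05 there were 2 members (EGR1 and EGR3), among 2866 of 16525 tested genes. DESeq2 called 1, EGR1, among 436 genes. EGR1 also passed without enriched replicate 1 (edgeR adjusted p = 0.022).

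In the MITO arms EGR1 had the largest difference of the members in all 3 labelled arms. With s6G it had 75.9 and 147 CPM in enriched libraries, against 11.0 and 9.50 CPM in inputs, a log2 difference of 3.47 ± 0.93. The unblocked fit did not call it (edgeR adjusted p = 0.19), and with the replicate as a block it rose by 3.41 ± 0.35 (adjusted p = 4.48e-10). IER2 had 35.2 and 69.7 CPM in enriched libraries, against 16.8 and 30.9 CPM in inputs. IER5 had 208 and 217 CPM in enriched libraries, against 119 and 117 CPM in inputs. With the block, IER2 rose by 1.16 ± 0.28 (edgeR adjusted p = 0.0043) and IER5 by 0.89 ± 0.23 (adjusted p = 0.0093), while without it their adjusted p was 0.44 and 0.32.

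The scale matters in this arm. Libraries scaled by total counts gave IER5 a log2 difference of -0.01, as that scaling moved the median of all genes by -0.87 in the MITO s6G arm. Relative to the median of all genes IER5 stayed higher under both scalings. Over all alternatives, total-count scaling among them, IER2 gave 0.18 to 1.63, IER5L 0.39 to 1.52 and EGR1 2.50 to 3.87. SRF had 157 and 117 CPM in enriched MITO s6G libraries, against 140 and 80.8 CPM in inputs, and IER5L 2.57 and 3.61 CPM against 1.16 and 1.36 CPM. In the authors' summed TPM, whose columns share 1 total, enriched MITO s6G lay below input for IER5 (118 against 345) and IER2 (23.8 against 64.8). The same held for SRF (33.1 against 132) and IER5L (2.49 against 5.67), while EGR1 was higher (59.8 against 32.8). IER5 was also lower there with s4U (138 against 372) and APEX only (95.3 against 345). In the MITO s6G arm edgeR called 0 of 5 tested members (0.317% of all tested genes called). There were 3 (EGR1, IER2 and IER5) at an unadjusted p under 0.05, among 1342 of 15151 tested genes. The block called those 3 (6.82% of all tested genes with the block), and DESeq2 called EGR1 and IER5 (602 genes in all).

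With s4U, EGR1 had 47.1 and 6.64 CPM in enriched MITO libraries, against 8.44 and 4.32 CPM in inputs. In the APEX-only arm it had 61.3 and 4.62 CPM in enriched libraries, against 7.62 and 2.31 CPM in inputs. In both arms replicate 1 was several times higher than replicate 2 in the enriched libraries, and also the higher of the inputs. The differences were 2.15 ± 0.93 for s4U (edgeR adjusted p = 0.68) and 2.74 ± 0.95 for APEX only (adjusted p = 0.38). With the replicate as a block EGR1 rose by 1.88 ± 0.40 with s4U (edgeR adjusted p = 0.0032) and by 2.45 ± 0.42 in the APEX-only arm (adjusted p = 6.62e-05). Leaving out enriched replicate 1 gave an unblocked difference of 0.12 with s4U and -0.03 with APEX only.

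IER5 had 146 and 142 CPM in enriched s4U libraries, against 116 and 102 CPM in inputs, and 120 and 104 CPM in enriched APEX-only libraries, against 96.0 and 79.5 CPM in inputs. IER2, IER5, IER5L and SRF differed by -0.64 to 0.43 on the log2 scale with s4U and by -0.58 to 0.41 in the APEX-only arm. edgeR called 0 of 5 tested members with s4U (0.112% of all tested genes called) and 0 of 5 in the APEX-only arm (0.271%). EGR1 was the 1 member with an unadjusted p under 0.05 in each, among 1050 and 1342 of 15151 tested genes. DESeq2 called 0 members in both, where it called 387 and 600 genes in all.

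In the unlabelled MITO arm EGR1 had 0 and 2 counts in the enriched libraries, against 14 and 19 in inputs. These libraries are the shallowest, and replicate 1 held 7 counts of IER5 and 1 of IER2. edgeR called 0 of 5 tested members (9.87% of all tested genes called). There were 0 at an unadjusted p under 0.05 (4147 of 15151 tested genes) and 0 by DESeq2 (2102 genes in all). IER2 differed by 0.94 ± 0.51, and by -1.66 without enriched replicate 2.

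Over the 16 replicates of the labelled arms, enriched CPM exceeded input CPM in 16 for IER2, 16 for IER5, 12 for EGR1, 12 for IER5L, 12 for EGR3, 11 for EGR2 and 10 for SRF. The 4 replicates in which EGR1 was lower are the 4 of ERM. In the 4 unlabelled replicates the enriched library was the higher in 2 for IER2, 1 for IER5, 1 for SRF, 1 for IER5L, 1 for EGR3 and 0 for EGR1 and EGR2. All these counts use TMM-scaled CPM, with scaling factors of 0.452 to 0.785 in labelled enriched MITO libraries. Total-count scaling moved the median of all genes by -0.87 in MITO s6G, -0.45 in s4U and -0.73 in APEX only. The MITO part of the 16 for IER2 and for IER5 therefore depends on the scaling.

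**Figure D2:**
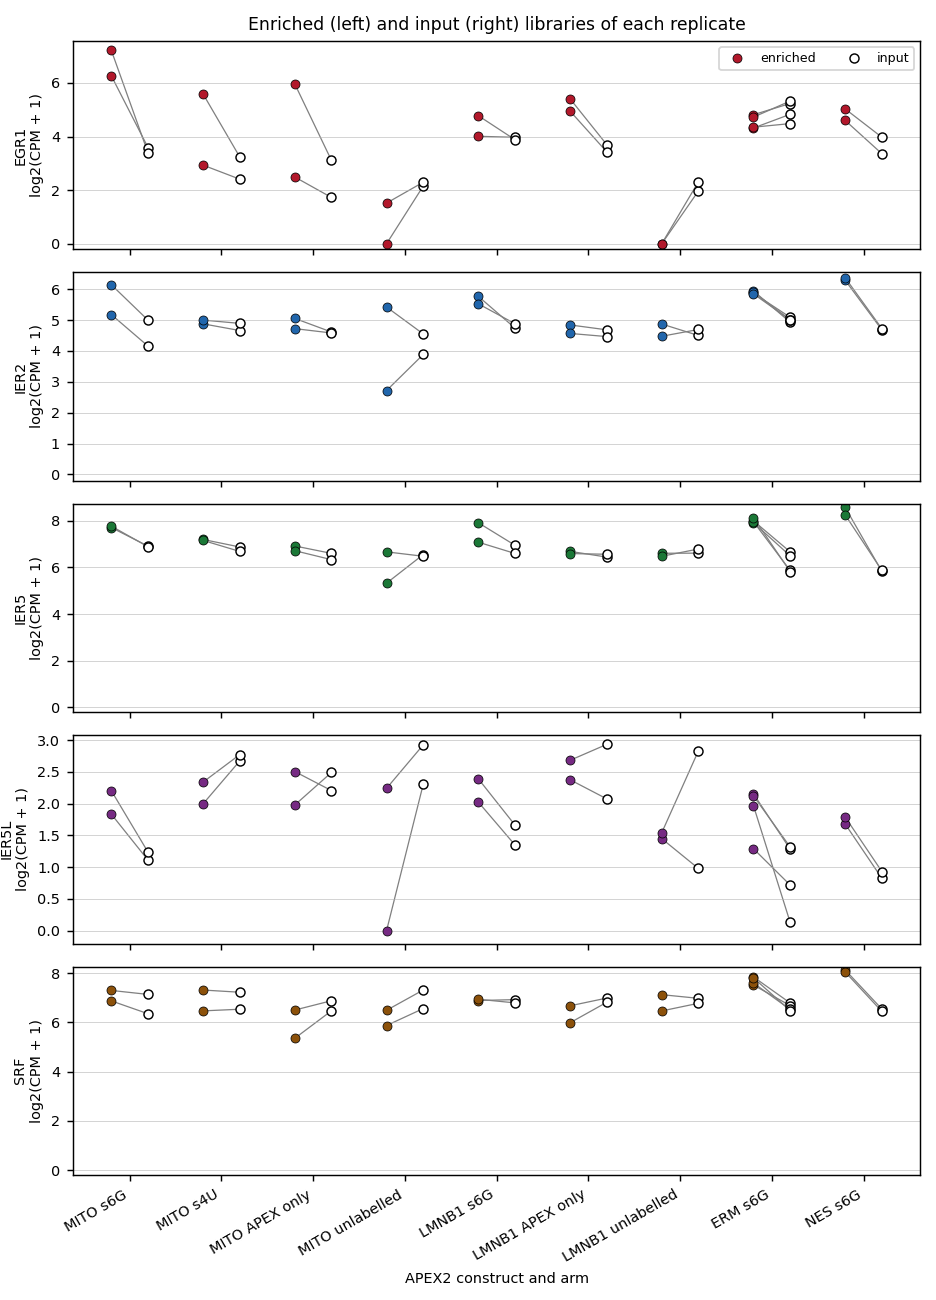
Enriched (coloured, left) and input (open, right) level of 5 members on a log2(CPM + 1) scale, with a line joining the libraries of each replicate, in every construct and arm. EGR1 lines slope down to the input in labelled MITO, LMNB1 and NES arms and up to the input in all 4 ERM and all 4 unlabelled replicates.

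Differences between arms were tested as differences of log2 fold changes. Constructs differ in their cells as well as their place, and a contrast between constructs cannot tell these apart. Between ERM and NES with s6G, no member passed without the replicate block and 3 passed with it, all less enriched in ERM. Without the block EGR1 differed by -1.62 ± 0.36, IER2 by -0.74 ± 0.18, IER5 by -0.81 ± 0.28 and SRF by -0.50 ± 0.19, with edgeR adjusted p of 0.11, 0.11, 0.23 and 0.25. With the replicate as a block, EGR1 (-1.61 ± 0.22, edgeR adjusted p = 0.0013), IER2 (-0.74 ± 0.17, adjusted p = 0.018) and SRF (-0.50 ± 0.14, adjusted p = 0.045) passed, and IER5 did not (-0.75 ± 0.31, adjusted p = 0.21). IER5L differed by 0.28, with a 95% interval of -1.71 to 2.27. Mean EGR1 was 22.7 CPM in enriched ERM and 27.5 CPM in enriched NES libraries, but 31.1 and 12.0 CPM in their inputs. Without the block 0 of 5 members were called, where 0.00640% of all tested genes were called. There were 4 members at an unadjusted p under 0.05, among 2167 of 15619 tested genes. DESeq2 called 4 members, among 463 genes. With the block 6.10% of all tested genes were called.

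Between ERM and LMNB1 with s6G, IER5 was more enriched in ERM by 0.98 ± 0.32 (edgeR adjusted p = 0.027). SRF differed by 1.03 ± 0.39, which did not pass without the block (edgeR adjusted p = 0.060) and passed with it (1.03 ± 0.23, adjusted p = 0.00039), where 28.0% of all tested genes were called. IER2 differed by 0.04 (95% interval -0.69 to 0.76) and EGR1 by -1.01 (-2.74 to 0.72). This was 1 of 7 tested members called, where 17.6% of all tested genes were called. The IER5 difference was 0.87 without ERM input replicate 3, 0.86 without ERM input replicate 4, 0.61 without LMNB1 enriched replicate 2 and 0.76 without LMNB1 input replicate 1, with edgeR adjusted p from 0.061 to 0.31.

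Within LMNB1, s6G minus APEX only gave IER2 0.82 ± 0.38, IER5 0.72 ± 0.34, SRF 0.70 ± 0.37 and EGR1 -1.05 ± 0.57. edgeR called 0 of 6 tested members (0% of all tested genes). There was 1 (IER2) at an unadjusted p under 0.05, among 2020 of 16525 tested genes, and 0 by DESeq2 (809 genes in all). The 95% interval of the EGR1 difference was -2.30 to 0.21. Against the unlabelled LMNB1 arm, the s6G arm had 1 of 6 tested members called, EGR1 (edgeR adjusted p = 0.019), where 2.69% of all tested genes were called. The size of that difference cannot be given, since the unlabelled enriched libraries held 0 counts, and the call was lost without any of 5 single libraries (edgeR adjusted p from 0.051 to 0.099). These were s6G enriched replicate 2, both s6G inputs and both unlabelled inputs.

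Within MITO, EGR1 differed by 0.72 (95% interval -2.01 to 3.46) between s6G and APEX only, by -0.60 (-3.35 to 2.16) between s4U and APEX only, and by 1.32 (-1.38 to 4.03) between s6G and s4U. IER5L had the largest of these differences between s6G and s4U, 1.92 ± 0.91. edgeR called 0 of 5 members in each of the 3 (0%, 0% and 0% of all tested genes). DESeq2 called 0 members in each (13, 3 and 0 genes in all). At an unadjusted p under 0.05 there were 0, 0 and 1 (IER5L) members, beside 371, 415 and 88 of 15151 tested genes. Against the unlabelled arm, MITO s6G gave EGR1 4.53 ± 2.03 and IER5 0.93 ± 0.44. edgeR called 0 of 5 members there (0.376% of all tested genes called). There were 2 (EGR1 and IER5) at an unadjusted p under 0.05, among 2815 of 15151 tested genes, and 0 by DESeq2 (694 genes in all). With the replicate as a block EGR1 was called (4.53 ± 1.06, edgeR adjusted p = 0.0043). Without unlabelled enriched replicate 2 the IER5 difference was 2.05 and passed (edgeR adjusted p = 0.025), and with total-count scaling it was -0.14. These arms share the MITO fit and, where named more than once, the same s6G, APEX-only or unlabelled libraries.

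**Figure D3:**
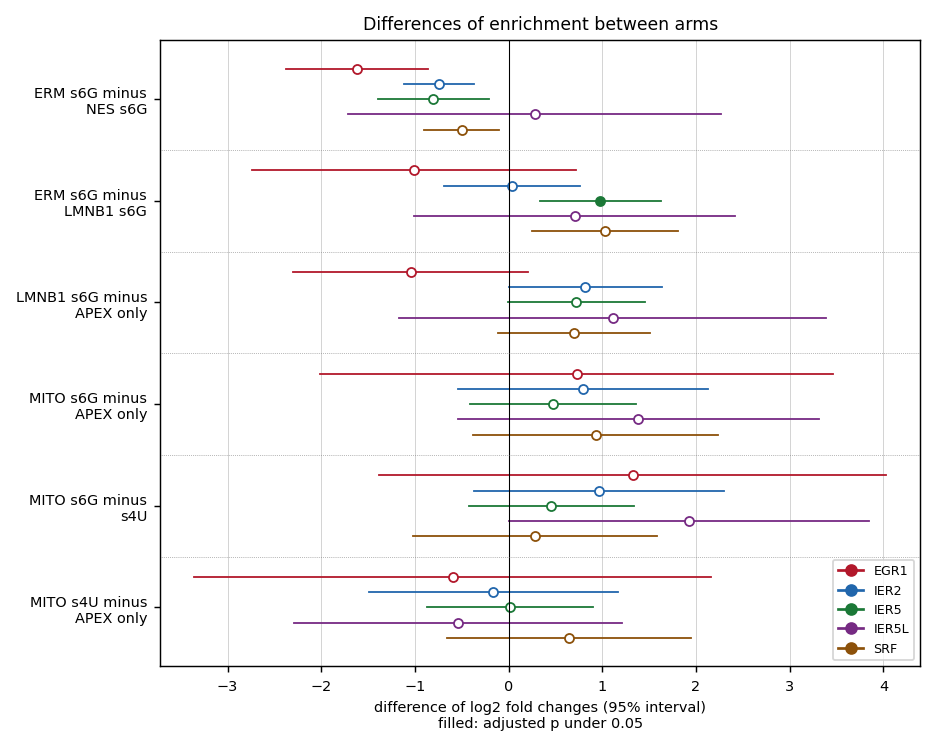
Difference between arms in the log2 fold change of enriched over input, with 95% intervals from edgeR, for 5 members in 6 contrasts, filled where the adjusted p is under 0.05. EGR1, IER2, IER5 and SRF are all below 0 for ERM minus NES, and IER5 is the filled point, at 0.98 for ERM minus LMNB1.

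Other genes of the pathway were counted in lists, beside the shares of all tested genes called in the same direction. In ERM 34.3% of all tested genes rose and 28.9% fell, in NES 28.7% rose and 26.4% fell, in LMNB1 s6G 5.37% rose and 7.64% fell, and in LMNB1 APEX only 0.411% rose and 1.02% fell.

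EGR and SRF partners are the EGR corepressors NAB1 and NAB2, EGR4, the SRF cofactors ELK1, ELK3 and ELK4, and the actin-sensing cofactors MKL1 and MKL2, 8 genes of which 7 were tested. In ERM 5 of 7 rose (34.3% of all genes) and 0 fell, led by NAB2 (1.30 ± 0.18), ELK4 (0.82 ± 0.15) and MKL2 (0.61 ± 0.12). In NES 4 of 7 rose (28.7% of all genes) and 0 fell, led by NAB2 (2.20 ± 0.27), NAB1 (0.88 ± 0.21) and ELK4 (0.85 ± 0.21). In LMNB1 ELK4 rose with s6G (1.19 ± 0.25) and with APEX only (1.14 ± 0.25), and 1 partner fell in each. The list's median log2 fold change was 0.47 in ERM, 0.73 in NES and -0.01 in LMNB1 s6G. ELK4 was also more enriched with LMNB1 s6G than in the unlabelled arm (1.51 ± 0.36), and ELK3 (2.04 ± 0.65) and ELK1 (0.93 ± 0.26) more in ERM than in LMNB1.

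Among 26 other immediate-early genes, 18 of 25 tested rose in ERM, where 34.3% of all genes did, and 20 of 25 in NES, where 28.7% did, and 0 fell in either. The median log2 fold change was 1.08 in ERM and 1.91 in NES. JUN, a subunit of AP-1, rose by 1.74 ± 0.18 in ERM and 2.76 ± 0.26 in NES. CTGF (2.73 ± 0.60) and the zinc-finger factor KLF2 (1.89 ± 0.65) led with it in ERM, and KLF6 (2.47 ± 0.16) and the AP-1 subunit JUNB (2.35 ± 0.29) in NES. In MITO s6G 2 of 26 rose (0.290% of all genes), the AP-1 subunits FOS (4.70 ± 0.94) and FOSB (3.32 ± 0.66). Both lay near the threshold, with edgeR adjusted p of 0.0496 and 0.0396. In LMNB1 0 of 25 were called with s6G and 0 of 25 with APEX only, with medians of 0.41 and 0.28. In inputs, 2 of 25 rose with LMNB1 s6G over APEX only (0.109% of all genes), the stress-induced factor ATF3 (2.22 ± 0.26) and JUN (1.64 ± 0.21). Between ERM and LMNB1, 7 of 26 were more enriched in ERM (10.7% of all genes) and 0 less, led by KLF10 (1.88 ± 0.42), MYC (1.71 ± 0.43) and CYR61 (1.68 ± 0.52).

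SRF's cytoskeletal targets, genes of actin and its partners, were mostly lower in enriched libraries than in inputs in ERM and NES. These are ratios of bead-held RNA to input, and regulation of these genes by SRF was not tested. In ERM 11 of 12 tested fell, where 28.9% of all genes did, and 1 rose (median -1.31), led by ACTA2, an actin (-1.89 ± 0.26), FLNA, an actin crosslinker (-1.84 ± 0.13), and ZYX, a focal adhesion protein (-1.79 ± 0.25). In NES 11 of 12 fell, where 26.4% of all genes did, and 1 rose (median -1.16), led by ACTA2 (-1.69 ± 0.40), FLNA (-1.64 ± 0.18) and the adhesion protein VCL (-1.45 ± 0.15). In LMNB1 7 of 12 fell with s6G (median -0.93; 7.64% of all genes) and 3 of 12 with APEX only (median -1.05; 1.02% of all genes), and 0 rose in either. In the unlabelled MITO arm 3 of 12 fell (4.09% of all genes), VCL (-1.39 ± 0.40), FLNA (-1.11 ± 0.33) and ACTG1 (-1.07 ± 0.29). The actins ACTB (-2.20 ± 0.35) and ACTG1 (-1.91 ± 0.25) and the calponin CNN2 (-1.85 ± 0.34) led in LMNB1 s6G.

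The RAS to ERK cascade was mixed. In ERM 7 of 13 tested genes rose and 4 fell (34.3% and 28.9% of all genes), with NRAS (0.81 ± 0.10) and the kinase MAP2K1 (0.73 ± 0.11) among those that rose. In NES 6 rose and 4 fell (28.7% and 26.4% of all genes), with NRAS (1.29 ± 0.15) and MAP2K1 (0.90 ± 0.16) again among those that rose. In LMNB1 s6G 1 rose and 3 fell (5.37% and 7.64% of all genes), MAPK3 (-1.61 ± 0.26), NRAS (-0.99 ± 0.22) and MAP2K2 (-0.93 ± 0.19). NRAS and MAP2K1 were more enriched in ERM than in LMNB1, by 1.91 ± 0.34 and 1.40 ± 0.25.

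HSF1 chaperones, listed because IER5 acts on that factor, were also mixed. Of 8 tested, 3 rose and 5 fell in ERM (34.3% and 28.9% of all genes), and 3 rose and 4 fell in NES (28.7% and 26.4% of all genes). HSPB1 fell by 2.12 ± 0.17 in ERM, 1.70 ± 0.25 in NES and 1.58 ± 0.26 in LMNB1 s6G. The mitochondrial chaperones HSPD1 and HSPE1 fell by 1.47 ± 0.15 and 1.53 ± 0.19 in ERM. DNAJB1 (1.77 ± 0.45) and BAG3 (1.46 ± 0.35) were more enriched in ERM than in LMNB1.

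Likeness to the members was measured as Pearson's r of log2 CPM over the 20 input libraries, among the 8447 genes that averaged 4 or more on that scale. EGR1 was most like SREBF2 (0.91), GADD45A (0.89) and TSPAN31 (0.89). IER5 was most like UBE2S (0.94), TMEM160 (0.93) and PDF (0.92). IER5L was most like FOXP4 (0.91), SIPA1L3 (0.91) and ABTB2 (0.90). SRF was most like CCDC97 (0.94), BCL7B (0.91) and CTCF (0.90), and IER2 most like FDXR (0.90), TSPAN17 (0.87) and NME3 (0.87). The sparse members EGR2 (MYADM, MTCL1 and NYNRIN, 0.83 to 0.88), EGR3 (ASIC1, EFHD1 and HPCAL1, 0.85 to 0.87) and IER3 (MRPS22, NIPA2 and PHF5A, 0.77 to 0.78) rest on few counts. IER3 had at most 1 count in any input, and where it had 0 its log2 CPM is set by the library scaling alone. These 20 libraries share constructs and nucleosides, so the values are descriptions.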

How the data were processed

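HTSeq 0.7.2, HISAT2 2.1.0, deepTools 2.5.3, SAMtools, DESeq2 and the build GRCh38/hg38 are listed in the submitters' processing notes, and the sources used here give neither the annotation nor the strand setting. The authors deposited whole-number counts for 57992 genes in 40 libraries, and log2(TPM + 1) values for MITO, with the TPM of both replicates added (each column sums to 2000000 when linear). Their fold-change tables were not used here. Per the labels' protocols, PCR ran for 15 cycles on enriched RNA and 11 on inputs, without molecular identifiers, so floors (3 counts) cover counting error only.

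The 8 members, the gene lists, the motifs and the tests were chosen with earlier results of these data known. The count test was edgeR's quasi-likelihood test (version 4.0.16, R 4.3.3; robust, TMM scaling, default expression filter, Benjamini-Hochberg adjustment over all tested genes, threshold 0.05). Group means were fitted for 16 MITO, 12 ERM and NES, and 12 LMNB1 libraries, and for all 40 where LMNB1 was set against another construct. Scripts were tested on simulated data. Each ± beside a fold change is the fit's SE (2 libraries per group, 4 for ERM), and p-values measure the spread between these libraries. The 24 comparisons are enriched over input in each arm, inputs between arms, and interaction terms.

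The series design makes the enriched and input library of one number the same replicate, which pairs them. Their deviations from group means correlated with r = 0.41 (MITO s6G), 0.50 (s4U), 0.39 (APEX only), 0.08 (unlabelled), 0.11 to 0.16 (ERM), 0.14 (NES), 0.44 (LMNB1 s6G), 0.28 (APEX only) and 0.04 (unlabelled). The block is printed where it changed a call. The text names all members, up to 3 called genes of each other list (the largest fold changes in its prevailing direction), the 3 genes most like each member in inputs (log2 CPM, prior count 2), and overlapping genes; not every gene this rule picks is reported here. Alternatives were DESeq2 1.42.0, other scalings, filters (one with a minimum count of 50) and sets of libraries, the block, and leaving out each replicate.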

Additional observations from a re-analysis of the deposited data

Results flagged for a closer look

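Several differences between arms or constructs passed a test of the difference itself, and their causes were not tested. IER5 was more enriched in ERM than in LMNB1 with s6G, by 0.98 on the log2 scale without and 1.07 with the replicate as a block (edgeR adjusted p = 0.027 and 0.00069). SRF passed in the same contrast with the block alone, at 1.03 (edgeR adjusted p = 0.00039). With the block, EGR1, IER2 and SRF were less enriched in ERM than in NES, by -1.61, -0.74 and -0.50. For EGR1 the inputs differed more between these constructs (means of 31.1 and 12.0 CPM) than the enriched libraries did (22.7 and 27.5 CPM). EGR1 lay below its input in 4 of 4 ERM replicates and above it in 2 of 2 NES replicates.

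EGR1 differed between the s6G and unlabelled arms of LMNB1, with a fitted log2 difference of 8.09 without and 8.10 with the block. Both fitted values depend on the prior count that edgeR adds, because the unlabelled enriched libraries held 0 counts, and they are no measure of size. The same contrast in MITO passed for EGR1 with the block, at 4.53. It rests on unlabelled enriched libraries of 0 and 2 EGR1 counts.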

How the results depend on the processing

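Of 56 member values followed through the alternatives, 51 kept their direction in every one, and 30 of the 56 also kept their side of the threshold. IER5 in MITO s6G gave -0.0058 with total-count scaling, and for MITO s6G minus unlabelled that scaling gave IER5 -0.14 and SRF -0.021, as it moved the median of all genes by -1.09 there. Leaving out 1 replicate gave EGR1 in the MITO APEX-only arm -0.031 to 3.78 and IER2 in the unlabelled MITO arm -1.66 to 1.29.

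Counts of called members moved as follows, from the values in the report. With the replicate block they were, beside the share of all tested genes called with it, 3 in MITO s6G (6.82%), 1 in s4U (4.98%), 1 in APEX only (7.15%), 1 in LMNB1 APEX only (4.08%), 5 in ERM s6G (66.7%), 1 for MITO s6G minus unlabelled (10.4%), 3 for ERM minus NES (6.10%) and 2 for ERM minus LMNB1 (28.0%). Over all alternatives they were 3 to 5 in ERM s6G and 3 to 5 in NES s6G. DESeq2 gave, beside the number of all genes it called, 5 in ERM s6G (9534) and 2 in MITO s6G (602). It also gave 1 in LMNB1 APEX only (1051), 1 in LMNB1 unlabelled (436) and 4 for ERM minus NES (463). With no expression filter they were 1 in LMNB1 APEX only, 1 in LMNB1 unlabelled, 2 for ERM minus NES and 0 for ERM minus LMNB1, and the stricter filter gave 1 in LMNB1 APEX only. Fitting all 40 libraries gave 1 in MITO s6G and 0 for LMNB1 s6G minus unlabelled. Fitting only the compared libraries gave 1 in LMNB1 s6G, 1 in LMNB1 APEX only, 0 for LMNB1 s6G minus unlabelled and 2 for ERM minus LMNB1. Leaving out single replicates gave 0 to 1 in LMNB1 s6G, 0 to 1 in LMNB1 unlabelled, 0 to 1 for MITO s6G minus unlabelled, 0 to 1 for LMNB1 s6G minus unlabelled and 0 to 1 for ERM minus LMNB1. The cause of these moves was not tested, and the ranges over all tested genes follow.

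Counts over all tested genes moved more. The number called was 48 in MITO s6G (0 to 2815 over the alternatives), 17 in s4U (0 to 755), 41 in MITO APEX only (5 to 1131), 1496 in MITO unlabelled (0 to 4323), 2150 in LMNB1 s6G (784 to 3394), 237 in LMNB1 APEX only (0 to 1317) and 6 in LMNB1 unlabelled (0 to 1064). It was 9870 in ERM (7755 to 10420) and 8612 in NES (6087 to 9338). For differences it was 1 for ERM minus NES (0 to 952), 3402 for ERM minus LMNB1 (1865 to 5453), 57 for MITO s6G minus unlabelled (0 to 1573), 445 for LMNB1 s6G minus unlabelled (0 to 2370) and 0 for LMNB1 s6G minus APEX only (0 to 809).

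Across arms, input libraries share only a number, and its deviations correlated with r from -0.47 to 0.49 between MITO inputs and from 0.37 to 0.49 between LMNB1 inputs. Taking that number as a block called 2 members for LMNB1 s6G over APEX only inputs (IER5 at 0.32 and IER5L at -1.37, with 4623 genes called in place of 21) and 1 for LMNB1 APEX only over unlabelled inputs (EGR1 at 1.60, with 132 in place of 0). Over all MITO input comparisons it called 0 members. Leaving out single replicates was not run for the difference of the s6G effect on inputs. Depth limits EGR2, EGR3, IER3 and IER5L, which had at most 46 counts in any library.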
